A study of Mus musculus with 4 samples.

Results

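Xbp1 and 9 genes of endoplasmic reticulum chaperones and related proteins were followed in MEL cells, a mouse erythroleukemia line halted at an early erythroid stage, with and without dimethyl sulfoxide (DMSO). The 10 genes (Xbp1, Hspa5, Hsp90b1, Dnajb9, Pdia4, Pdia6, Calr, Canx, Herpud1 and Sdf2l1) were chosen by symbol for their known place in the unfolded protein response. Each matched 1 locus of the 47935 in the expression table, and all 10 were measured. Some loci extended beyond the gene positions given below, among them those of Pdia6 (17266545 to 17329359) and Herpud1 (94377921 to 94395377). The Hsp90b1 locus also carried the symbols Gm15344 and Gm25745, and the Pdia4 locus carried Mir704, so the values of these 2 loci are shared between genes. The study held 2 DMSO-induced samples, whose medium contained 1.5% DMSO to set off erythroid-like differentiation, and 2 uninduced samples of the same line. Ribosomal RNA-depleted total RNA was sequenced, and the level of each locus is stated in FPKM, a fragment number divided by transcript length and by the size of the library. The time in DMSO is not given in the sources used here, and nothing says that replicates came from separate cultures, so the spread behind each p-value may be technical alone. Both states were of 1 line, and MEL cells are transformed cells whose differentiation is a model of the erythroid program.

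Summed FPKM lay between 1055861 and 1325806 per sample. At least 1 FPKM was reached by 12151 to 12645 loci in each; read depth is unknown. All 8 erythroid markers listed (Gata1, Klf1, Tal1, Epor, Alas2, Slc4a1, Hba-a1 and Hbb-bs) were measured, and 6 of them rose in the induced samples. Their summed level was 58517 and 112041 FPKM in induced replicates 1 and 2, against 1299 and 1706 FPKM in uninduced replicates 1 and 2. Of 5 plasma cell markers, Irf4 and Jchain were listed at 0 in every sample, Prdm1 and Mzb1 reached at most 0.12 FPKM, and Sdc1 measured 10.4 and 8.83 FPKM in induced samples and 20.7 and 14.1 FPKM in uninduced samples. The plasma cell list summed to 10.4 and 8.84 FPKM in induced and 20.9 and 14.2 FPKM in uninduced samples. The 5 fibroblast markers summed to 0.21 and 0.23 FPKM in induced and 0.07 FPKM in each uninduced sample, with Lum listed at 0 throughout.

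Proteins bound for the cell surface or for secretion fold in the endoplasmic reticulum, helped by chaperones, disulfide isomerases and lectins. When unfolded proteins accumulate there, 3 sensors (IRE1, PERK and ATF6) start the unfolded protein response. IRE1 splices the Xbp1 transcript into the form that encodes the active transcription factor, ATF6 is cut to release another one, and PERK slows translation while raising ATF4. Erythroid cells pass membrane glycoproteins such as band 3 through this compartment, make their hemoglobin in the cytosol, and lose the endoplasmic reticulum as they mature into red cells.

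Promoters of the 10 genes were searched for the elements through which ATF6 and XBP1 are known to act. The genes were chosen for their known place in this response, so matches in them are a description and no independent result. RefSeq promoters on GRCm38.p6 (250 bases before to 50 bases after each start) were found for all 10. The endoplasmic reticulum stress element, ERSE, was searched on both strands as CCAAT and CCACG with 9 bases of any kind between them. The related ERSE-II was searched as ATTGG and CCACG with 1 base between them, and the XBP1 element UPRE as TGACGTGG. CCAAT, read on the other strand, is the first 5 bases of ERSE-II, but no stretch was counted under both. ERSE was found in 5 of the 10 promoters (Hspa5, Hsp90b1, Pdia6, Calr and Canx), against 0.119% of the 32851 promoters in the table (39 of them). ERSE-II was found in Herpud1 and in 0.0365% of all promoters, and the UPRE letters were in none of the 10 and in 0.676% of all promoters. For Xbp1, Dnajb9, Pdia4 and Sdf2l1 none of these letter strings was in the window. Only exact letters were searched, so a near match, or one outside the window, was not counted. A match is a description of letters and not a measured binding site.

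The 6 stretches that hold a match are shown on the strand of their gene, 5′ to 3′, with the element in capitals and 25 bases on each side. They lie upstream of the RefSeq start, at chr2:34772000-34772068 (plus strand) for Hspa5, chr10:86705508-86705681 (minus) for Hsp90b1 and chr12:17266466-17266534 (plus) for Pdia6. Those of the others are at chr8:84847050-84847118 (minus) for Calr, chr11:50325775-50325843 (minus) for Canx and chr8:94386352-94386412 (plus) for Herpud1. The gene positions given further below are from GENCODE and differ in places. By them the Hspa5 stretch lies inside the gene, and the Hsp90b1 stretch overlaps the first bases of its gene. Hsp90b1 held 2 copies, the one nearer the start reversed, and the copy in Calr was reversed as well.
Hspa5: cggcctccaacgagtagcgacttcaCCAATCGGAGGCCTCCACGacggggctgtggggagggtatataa
Hsp90b1: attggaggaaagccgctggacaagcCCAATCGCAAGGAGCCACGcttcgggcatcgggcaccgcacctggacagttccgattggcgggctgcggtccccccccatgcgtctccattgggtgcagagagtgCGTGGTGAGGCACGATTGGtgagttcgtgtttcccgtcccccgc
Pdia6: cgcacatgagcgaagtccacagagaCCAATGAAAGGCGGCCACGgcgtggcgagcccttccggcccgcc
Calr: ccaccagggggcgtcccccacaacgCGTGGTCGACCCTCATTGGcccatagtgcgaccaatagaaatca
Canx: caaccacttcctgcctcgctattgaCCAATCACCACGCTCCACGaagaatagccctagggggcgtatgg
Herpud1: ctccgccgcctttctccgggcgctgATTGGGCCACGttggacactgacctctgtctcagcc
The element ended 42 bases before the RefSeq start in Herpud1 and 47 in Hspa5, and began 162 bases before it in Calr.

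Across the comparison of DMSO-induced with uninduced cells, Herpud1, Sdf2l1 and Pdia6 fell, and the other 7 genes did not pass the test. No gene of the 10 rose (limma, 0 also at an unadjusted p of 0.05). The test was limma-trend on log2(FPKM + 1) over 12890 loci with Benjamini-Hochberg adjustment at 0.05, by which 14.7% of all loci fell, 11.5% rose and 26.2% changed in either direction. The median log2 change of the 10 genes was -0.52, beside 0.03 over all loci tested and moved to -0.04 when uninduced replicate 1 was left out and to -1.15 when uninduced replicate 2 was. Both induced values lay below both uninduced values for 5 of the 10 (Pdia4, Pdia6, Calr, Herpud1 and Sdf2l1) and for 34.7% of all loci, and the groups overlapped for the other 5. Leaving out any 1 sample leaves a group of 1, and calls over all loci then dropped steeply. The loss of the 3 calls in those fits therefore cannot be laid to single samples. The log2 change then ran from -1.74 to -1.55 for Herpud1, from -1.64 to -1.11 for Sdf2l1 and from -1.33 to -0.87 for Pdia6. Fewer cells with a transcript and less of it per cell cannot be told apart in bulk RNA. Means are given ± SD over n = 2 samples per group and log2 changes ± SE.

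**Figure D1:**
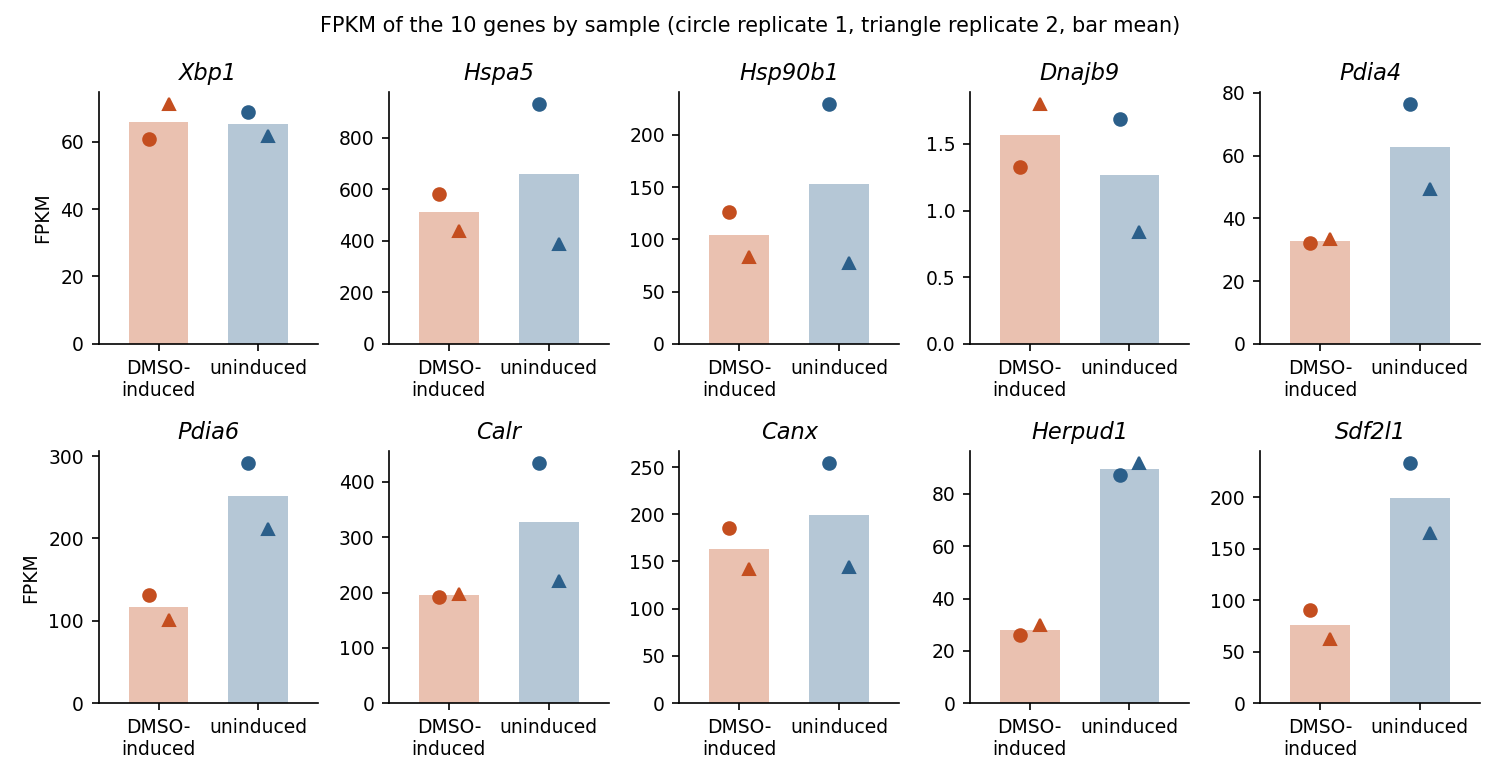
FPKM of the 10 genes in each sample, with the mean of each group as a bar, circles for replicate 1 and triangles for replicate 2, and a separate linear axis per gene. The induced points lie below both uninduced points for Pdia4, Pdia6, Calr, Herpud1 and Sdf2l1, and uninduced replicate 1 is the highest of the 4 samples for 7 of the 10.

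Xbp1, the transcription factor of the response (chromosome 11, 5520659 to 5525893, plus strand, GRCm38), was nearly level between the states. It measured 60.7 and 71.1 FPKM in induced replicates 1 and 2, against 68.8 and 61.7 FPKM in uninduced replicates 1 and 2. The groups overlapped, with means of 65.9 ± 7.37 FPKM in induced and 65.3 ± 5.05 FPKM in uninduced cells. The log2 change was 0.01 ± 0.20 (limma adjusted p = 0.966), with a 95% interval from -0.49 to 0.51, which leaves room for a change of either sign. Under quantile normalization it was 0.26, and under median-of-ratios scaling -0.03. These values sum the transcripts of the locus, so the spliced and unspliced forms of Xbp1 were not measured apart. The 3 loci whose centred values over the 4 samples lay nearest to those of Xbp1 were Morf4l1, 2610001J05Rik and Taf12, at Euclidean distances of 0.0102, 0.0113 and 0.0374 on the log2(FPKM + 1) scale. With 4 samples such likeness is common: 54 of 10052 loci lay within 0.1.

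Herpud1, a membrane protein of the complex that draws misfolded proteins out of the endoplasmic reticulum for degradation (chromosome 8, 94386438 to 94395377, plus strand), had the lowest induced level relative to uninduced of the 10. It measured 26.2 and 29.9 FPKM in induced samples, against 87.4 and 91.8 FPKM in uninduced samples. Replicates were close in both groups, and the lower uninduced value was 2.92 times the higher induced value. The mean fell to 28.0 ± 2.65 FPKM in induced cells, against 89.6 ± 3.10 FPKM in uninduced cells, a log2 change of -1.64 ± 0.19 (limma adjusted p = 0.0128). Without 1 sample the change ran from -1.74 to -1.55 and the limma adjusted p from 0.0562 to 0.084, so the call ended while the value stayed. Relative to Xbp1, whose products include activators of such genes, the Herpud1 level was 0.431 and 0.421 of the Xbp1 level in induced samples and 1.27 and 1.49 times it in uninduced samples (ratio of FPKM). Its promoter stretch above is the one with ERSE-II.

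Sdf2l1, a luminal partner of the BiP co-chaperone Dnajb11 (chromosome 16, 17130138 to 17132383, minus strand), fell. It measured 90.1 and 62.1 FPKM in induced samples, against 233 and 165 FPKM in uninduced samples. The groups stood apart, with replicate 1 the higher in both. Means were 76.1 ± 19.8 FPKM in induced and 199 ± 47.7 FPKM in uninduced cells, a log2 change of -1.38 ± 0.29 (limma adjusted p = 0.0296). Without 1 sample the adjusted p ran from 0.0677 to 0.149 and the change from -1.64 to -1.11. Sdf2, its paralog, measured 65.9 and 84.7 FPKM in induced and 42.9 and 46.2 FPKM in uninduced samples and did not pass (0.73 ± 0.21, limma adjusted p = 0.0594). The ratio of Sdf2l1 to Sdf2 FPKM was 1.37 and 0.733 in induced samples and 5.42 and 3.58 in uninduced samples.

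The disulfide isomerases Pdia6 and Pdia4 were both lower in the induced samples, and Pdia6 alone passed. Pdia6, also called P5 (chromosome 12, 17266545 to 17284770, plus strand), measured 131 and 101 FPKM in induced samples, against 291 and 211 FPKM in uninduced samples. Its log2 change was -1.10 ± 0.26 (limma adjusted p = 0.0395). That call also ended under quantile normalization (-0.86, limma adjusted p = 0.0704) and with scaling that leaves out globins and the 10 most abundant loci (-1.002, 0.0713), and without 1 sample the adjusted p ran from 0.0909 to 0.19. Pdia4, also called ERp72 (chromosome 6, 47796141 to 47813430, minus strand), measured 32.2 and 33.3 FPKM in induced samples, against 76.4 and 49.3 FPKM in uninduced samples. The induced pair lay close together below a wider uninduced pair. The log2 change of Pdia4 was -0.89 ± 0.26 with a 95% interval from -1.56 to -0.21 (limma adjusted p = 0.0633). Leaving out uninduced replicate 1 gave -0.58, leaving out uninduced replicate 2 gave -1.20, and the difference passed under median-of-ratios scaling (-0.93, limma adjusted p = 0.0455). Whether Pdia6 and Pdia4 differed in their change was not tested.

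The abundant chaperones Hspa5 and Hsp90b1 differed more between the uninduced samples than between the groups. Hspa5 encodes BiP, the HSP70 of the endoplasmic reticulum, which also holds the sensors inactive (chromosome 2, 34771970 to 34777547, plus strand). It measured 583 and 439 FPKM in induced samples, against 931 and 387 FPKM in uninduced samples. Both induced values fell between the uninduced ones. Its log2 change was -0.25 ± 0.47 (limma adjusted p = 0.713, 95% interval from -1.44 to 0.95). The direction turned with the uninduced sample kept: 0.39 without uninduced replicate 1 and -0.88 without uninduced replicate 2, neither called. Hsp90b1, the HSP90 of this compartment, known as GRP94 (chromosome 10, 86690209 to 86705509, minus strand), measured 126 and 83.6 FPKM in induced samples, against 230 and 77.1 FPKM in uninduced samples. The induced values again lay inside the uninduced range. The log2 change of Hsp90b1 was -0.37 ± 0.55 (limma adjusted p = 0.635), or 0.41 without uninduced replicate 1 and -1.16 without uninduced replicate 2. Hspa5 stood 4.64 and 5.26 times above Hsp90b1 (ratio of FPKM) in induced samples and 4.06 and 5.02 times above it in uninduced samples.

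The lectin chaperones Calr and Canx, which bind glycoproteins that carry a trimmed sugar chain, did not pass. Calr, the soluble one, calreticulin (chromosome 8, 84841850 to 84846934, minus strand), measured 193 and 198 FPKM in induced samples, against 434 and 220 FPKM in uninduced samples. The groups did not overlap, but uninduced replicate 2 stood only 1.11 times above the higher induced value. Its log2 change was -0.66 ± 0.36 (limma adjusted p = 0.221, 95% interval from -1.59 to 0.26), or -0.17 without uninduced replicate 1 and -1.15 without uninduced replicate 2. Canx, the membrane-bound one, calnexin (chromosome 11, 50293961 to 50325673, minus strand), measured 185 and 142 FPKM in induced samples, against 254 and 144 FPKM in uninduced samples. Induced replicate 1 lay between the uninduced values and induced replicate 2 just under them. The log2 change of Canx was -0.24 ± 0.34 (limma adjusted p = 0.623, 95% interval from -1.10 to 0.63), and it turned to 0.17 without uninduced replicate 1 and to 0.02 under quantile normalization. The ratio of Calr to Canx FPKM was 1.04 and 1.39 in induced samples and 1.71 and 1.53 in uninduced samples.

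Dnajb9, the J-domain co-chaperone ERdj4 that brings BiP to misfolded proteins and to IRE1 (chromosome 12, 44205559 to 44210326, minus strand), was the lowest of the 10 in every sample. It measured 1.33 and 1.80 FPKM in induced samples, against 1.69 and 0.84 FPKM in uninduced samples. The groups overlapped near the limit of 1 FPKM set for the test. The log2 change was 0.20 ± 0.27 (limma adjusted p = 0.605, 95% interval from -0.50 to 0.89), or -0.08 without uninduced replicate 2, and a log2(FPKM + 1) scale understates changes of so low a gene.

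**Figure D2:**
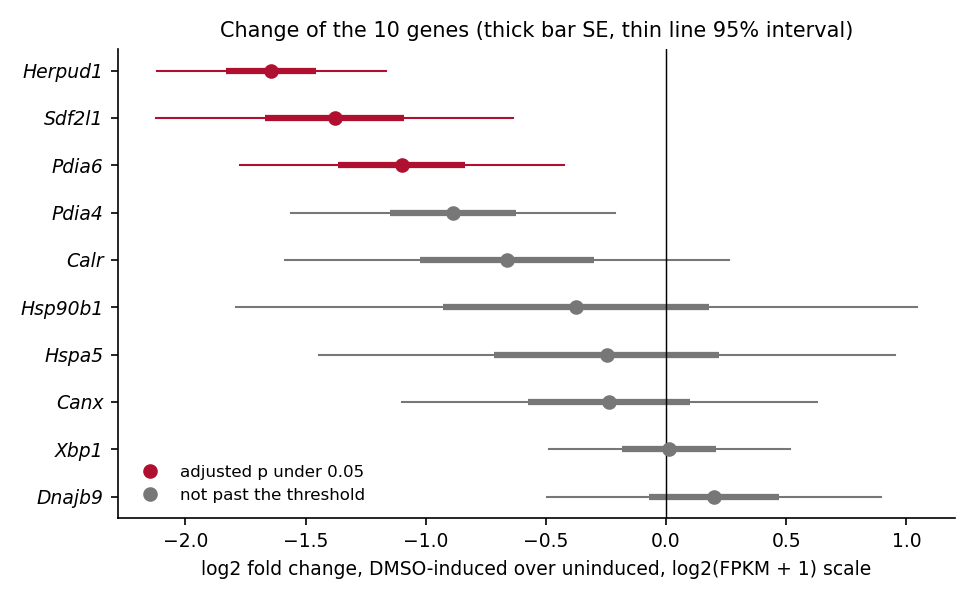
Log2 fold change of the 10 genes, DMSO-induced over uninduced on the log2(FPKM + 1) scale, with the SE as a thick bar and the 95% interval as a thin line from limma, red where the adjusted p was under 0.05. Herpud1 (-1.64), Sdf2l1 (-1.38) and Pdia6 (-1.10) are the red ones, and the intervals of Calr, Hsp90b1, Hspa5, Canx, Xbp1 and Dnajb9 span 0.

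Levels of the 10 genes spanned a wide range, and FPKM is per length, so they may be ordered. Hspa5 was the highest and Calr the second in each of the 4 samples, and Dnajb9 the lowest. In induced samples Canx and Pdia6 came next, each below its neighbour in both samples, while Pdia6, Hsp90b1, Sdf2l1 and Xbp1 overlapped from one to the next. Pdia4, Herpud1 and Dnajb9 then followed, each separated from the one above. In uninduced samples each neighbour overlapped the one above except Xbp1, which lay below Herpud1, and Dnajb9, which lay below Pdia4. Herpud1 ranked 9 in both induced samples, against 7 and 6 in uninduced replicates 1 and 2. The 10 genes summed to 1429 and 1162 FPKM in induced samples, against 2607 and 1408 FPKM in uninduced samples, so that induced replicate 1 exceeded uninduced replicate 2. The means differed by -712 FPKM (induced minus uninduced), less than the SD of 847 FPKM between the uninduced sums, and by -113 FPKM without uninduced replicate 1. As a share of each table this was 0.115% and 0.106% in induced samples, and 0.247% and 0.106% in uninduced samples. Hspa5 made up 40.8% and 37.8% of the induced sums and 35.7% and 27.5% of the uninduced sums.

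The 2 uninduced samples stood apart for these genes. Uninduced replicate 1 was above uninduced replicate 2 for 9 of the 10, all but Herpud1, with a median log2 difference of 0.58, whereas 56.7% of all loci tested were higher in replicate 1, with a median of 0.07. The ratio of uninduced replicate 1 to replicate 2 was 2.98 for Hsp90b1, 2.41 for Hspa5, 2.01 for Dnajb9, 1.97 for Calr, 1.76 for Canx and 1.55 for Pdia4, but 1.41 for Sdf2l1, 1.38 for Pdia6, 1.12 for Xbp1 and 0.952 for Herpud1. The 3 genes that fell had uninduced replicates within 1.41 times of each other. The test weighs a change against the spread between replicates, so it favours such genes. Between the induced samples 5 of the 10 were higher in replicate 1, with a median log2 difference of 0.17, and the largest ratio was 1.51, for Hsp90b1. What the uninduced samples differed in was not given by the labels, and its part in the group comparison was not tested.

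Genes of the PERK and ATF4 arm differed between the uninduced samples the other way. All 7 listed (Atf4, Ddit3, Ppp1r15a, Ppp1r15b, Trib3, Chac1 and Atf3) were higher in uninduced replicate 2. Their median log2 difference, replicate 1 minus replicate 2, was -1.32, beside 0.07 over all loci, of which 56.7% were higher in replicate 1. Ddit3, which encodes the stress factor CHOP, measured 41.1 and 51.0 FPKM in induced samples, against 48.9 and 326 FPKM in uninduced samples. The groups overlapped, since 1 uninduced sample held nearly all of the excess, and Ddit3 did not pass (-1.45 ± 0.88, limma adjusted p = 0.261). Atf4, the transcription factor of this arm, measured 109 and 104 FPKM in induced samples, against 286 and 469 FPKM in uninduced samples. It fell (-1.78 ± 0.29, limma adjusted p = 0.0194), with an adjusted p from 0.0652 to 0.112 when 1 sample was left out. In all 3 of the 7 fell (Atf4, Chac1 and Trib3, a pseudokinase and target of ATF4) and none rose (1 higher at an unadjusted p of 0.05 in limma). Among all loci tested 14.7% fell and 11.5% rose. Trib3 measured 6.99 and 6.15 FPKM in induced samples, against 30.7 and 242 FPKM in uninduced samples (-3.54 ± 0.94, limma adjusted p = 0.0493), or -5.01 without uninduced replicate 1 and -2.07 without uninduced replicate 2. With limma adjusted p from 0.034 to 0.192 over the alternatives, the call of Trib3 held without uninduced replicate 1 (0.0427) and ended under quantile normalization (0.0524), median-of-ratios scaling (0.0558), a pseudocount of 0.1 (0.054), no filter (0.148) and without any of the other 3 samples. The median of the 7 was -1.45, or -2.13 without uninduced replicate 1 and -0.28 without uninduced replicate 2.

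**Figure D3:**
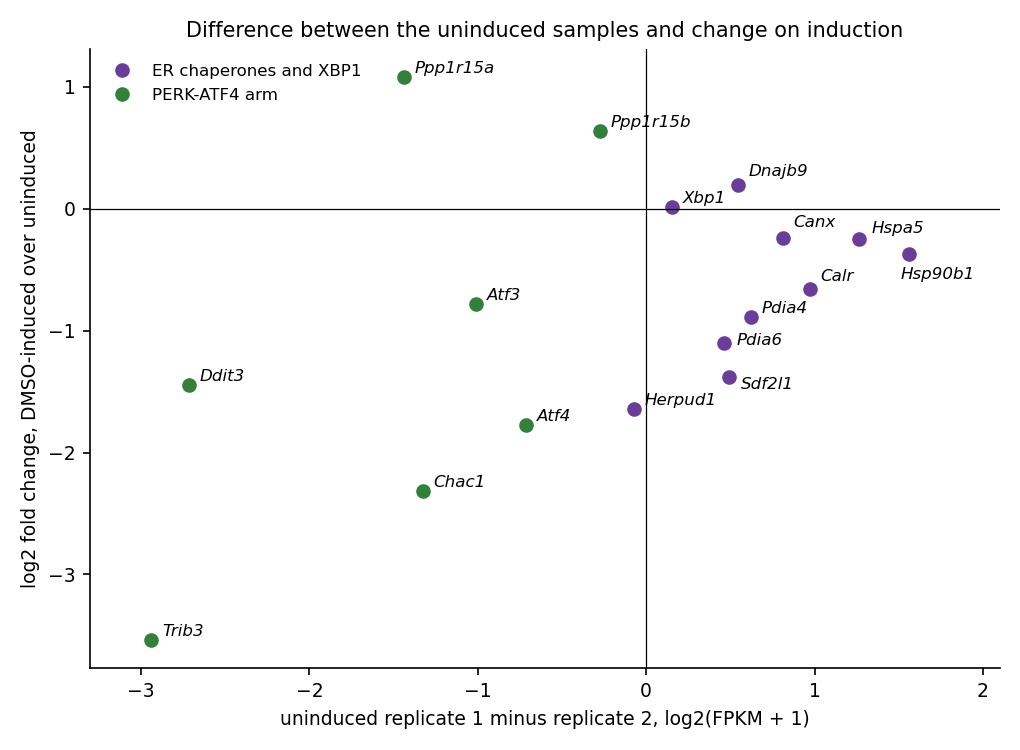
Log2(FPKM + 1) of uninduced replicate 1 minus replicate 2 on the x axis against the log2 fold change of DMSO-induced over uninduced on the y axis, for the 10 endoplasmic reticulum genes and the 7 genes of the PERK and ATF4 arm. Of the 10 genes 9 lie right of 0 on the x axis, up to 1.56 for Hsp90b1, with Herpud1 at -0.07, and the 7 lie left of 0; both axes use the same uninduced samples.

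The sensors upstream of these genes were low to moderate in level. Ern1, which encodes IRE1 and splices Xbp1, measured 2.57 and 3.86 FPKM in induced samples, against 1.34 and 1.47 FPKM in uninduced samples. Both induced values were above both uninduced values, and the change did not pass (0.79 ± 0.24, limma adjusted p = 0.0677; 0.0492 with a replicate block). Atf6 measured 11.9 and 14.9 FPKM in induced samples, against 10.8 and 10.2 FPKM in uninduced samples (0.32 ± 0.21, limma adjusted p = 0.305). Eif2ak3, which encodes PERK, measured 6.06 and 6.27 FPKM in induced samples, against 6.28 and 4.25 FPKM in uninduced samples (0.21 ± 0.25, limma adjusted p = 0.543). The shares over all loci were 14.7% fallen and 11.5% risen. Of 6 sensor and protease genes, 1 fell and none rose (1 higher at an unadjusted p of 0.05 in limma). That one was Atf6b, a relative of Atf6, at 12.3 and 12.7 FPKM in induced samples, against 22.0 and 22.9 FPKM in uninduced samples (-0.80 ± 0.18, limma adjusted p = 0.0363; 0.065 with scaling that leaves out globins and the 10 most abundant loci).

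Around the 10 genes, 102 other genes of the compartment or of the PERK and ATF4 arm were listed by role. Of these, 99 were tested, 15 fell and 3 rose, where 14.7% of all loci fell and 11.5% rose. The share that fell was thus near that of all loci, and the share that rose was lower than that of all loci in this fit. Both induced values lay above both uninduced values for 32 of the 99, beside 36.1% of all loci, and below for 42, beside 34.7%. At an unadjusted p of 0.05 in limma 17 were higher and 24 lower. The median log2 change of the 99 was -0.05, beside 0.03 over all loci. Its sign turned under quantile normalization (0.06), with scaling that leaves out globins and the 10 most abundant loci (0.04) and without uninduced replicate 1 (0.10). Without uninduced replicate 2 the median was -0.27. Under quantile normalization 13 fell and 10 rose, where 1692 of the 12890 loci tested fell and 1819 rose. With 1 sample left out calls dropped, as they did over all loci. Of the 99, 73.7% were higher in uninduced replicate 1 than in replicate 2, beside 56.7% of all loci tested. The PERK and ATF4 arm is counted in these figures. It held 3 of the 15 that fell, and 0 of its 7 genes were higher in uninduced replicate 1.

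Partners that fold proteins gave a mixed picture, to be read beside the 14.7% of all loci that fell and the 11.5% that rose. Of 7 BiP co-chaperones and exchange factors none passed in limma (1 higher and 1 lower at an unadjusted p of 0.05), with a median of 0.09, or 0.40 without uninduced replicate 1 and -0.38 without uninduced replicate 2. Uninduced replicate 1 exceeded replicate 2 for each of the 7, beside 56.7% of all loci tested. Hyou1, an exchange factor for BiP, and Dnajb11 belong here, with changes of -1.18 ± 0.39 and -0.51 ± 0.29 (limma adjusted p = 0.0798 and 0.23). Of 16 disulfide isomerases and oxidoreductases tested, 3 fell and 2 rose, with a median of -0.20, or -0.01 without uninduced replicate 1 and -0.46 without uninduced replicate 2. Txndc12, a thioredoxin-domain protein of the lumen, measured 4.97 and 4.17 FPKM in induced samples, against 14.4 and 16.4 FPKM in uninduced samples (-1.56 ± 0.21, limma adjusted p = 0.0148). The other 2 that fell were Ero1l, the oxidase that recharges the isomerases (-1.32), and Txndc5 (-1.14). Tmx4, a membrane-bound thioredoxin-like protein, measured 10.6 and 11.1 FPKM in induced samples, against 4.20 and 2.44 FPKM in uninduced samples and rose (1.48 ± 0.27, limma adjusted p = 0.0226). The locus of Tmx2, shared with Ctnnd1 and Gm28635, rose as well (0.68, limma adjusted p = 0.0492). P4hb, the founding member of the isomerase family, was the most abundant of them and did not pass, at 407 and 445 FPKM in induced samples and 594 and 469 FPKM in uninduced samples.

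Genes that bring proteins into the endoplasmic reticulum and add sugar chains had medians below 0. For comparison, 14.7% of all loci fell and 11.5% rose. Of 11 oligosaccharyltransferase genes 3 fell (Krtcap2, Rpn1 and Ddost) and none rose in limma (0 also at an unadjusted p of 0.05), with a median of -0.73 (-0.49 to -0.77 under the 3 other scalings), and both induced values lay below both uninduced values for 8, beside 34.7% of all loci. Krtcap2, a small subunit, measured 89.9 and 84.6 FPKM in induced samples, against 175 and 224 FPKM in uninduced samples (-1.18 ± 0.22, limma adjusted p = 0.0224). Of 15 translocon and signal peptidase genes 2 fell (Ssr2 and Sec61a1, the channel subunit) and none rose (1 higher at an unadjusted p of 0.05 in limma), with a median of -0.44, or -0.10 without uninduced replicate 1. Ssr2, a subunit of the translocon-associated complex, measured 186 and 172 FPKM in induced samples, against 524 and 396 FPKM in uninduced samples (-1.35 ± 0.24, limma adjusted p = 0.021).

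Quality control and removal of proteins showed few calls, where 14.7% of all loci fell and 11.5% rose. Of 10 genes of N-glycan quality control tested 1 fell and none rose in limma (0 also at an unadjusted p of 0.05), with a median of -0.01 (0.12 under quantile normalization). It was Mogs, the glucosidase that trims the first sugar, at 36.9 and 34.2 FPKM in induced samples, against 69.0 and 75.5 FPKM in uninduced samples (-1.01 ± 0.18, limma adjusted p = 0.0224). Of 15 genes of endoplasmic reticulum-associated degradation tested, the machinery in which Herpud1 works, 1 fell and none rose (5 higher at an unadjusted p of 0.05 in limma). Their median was 0.40, and both induced values lay above both uninduced values for 9, beside 36.1% of all loci. The one that fell was the locus of Ube2g2, shared with Sumo3 and Mir1930 (-0.96 ± 0.19, limma adjusted p = 0.0274). Herpud2, the paralog of Herpud1, measured 4.85 and 5.0 FPKM in induced samples, against 2.72 and 1.76 FPKM in uninduced samples and did not pass (0.89 ± 0.24, limma adjusted p = 0.0517). Herpud1 and Herpud2 thus had changes of opposite sign, a difference that was not tested. Of 12 retrieval and calcium genes 1 rose and 1 fell, with a median of 0.26, or 0.41 without uninduced replicate 1 and 0.07 without uninduced replicate 2. Kdelr3, a receptor that returns luminal chaperones from the Golgi, measured 39.1 and 48.1 FPKM in induced samples, against 24.4 and 21.3 FPKM in uninduced samples (0.90 ± 0.21, limma adjusted p = 0.0362). Itpr1, a calcium release channel, measured 2.21 and 1.57 FPKM in induced samples, against 5.56 and 4.88 FPKM in uninduced samples (-1.11 ± 0.23, limma adjusted p = 0.028).

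**Figure D4:**
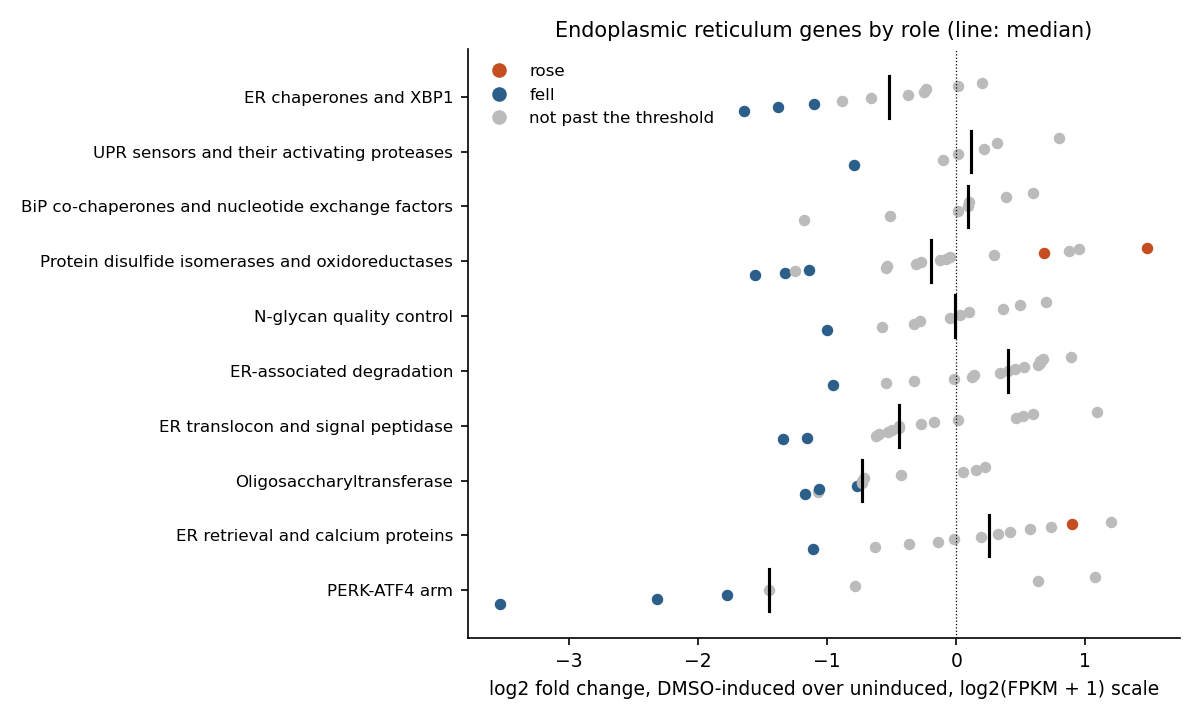
Log2 fold change of DMSO-induced over uninduced on the log2(FPKM + 1) scale for the 10 genes (top row) and for 9 other lists. The lists hold genes of the endoplasmic reticulum or of the PERK and ATF4 arm. Each tested locus is 1 point, coloured by its call, with the median as a black line. Medians lie at -0.52 for the 10 genes, -0.73 for the oligosaccharyltransferase, 0.40 for endoplasmic reticulum-associated degradation and -1.45 for the PERK and ATF4 arm. The median of the 10 genes moves to -0.04 without uninduced replicate 1 and to -1.15 without uninduced replicate 2. That of the PERK and ATF4 arm moves to -2.13 and -0.28 in the same order.

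The changes may be set beside the promoter letters. Among the 5 with ERSE, Pdia6 fell and Hspa5, Hsp90b1, Calr and Canx did not pass, with log2 changes from -1.10 to -0.24. Herpud1, with ERSE-II, fell. Of the 4 with none of the 3 letter strings in the window, Sdf2l1 fell and Pdia4, Xbp1 and Dnajb9 did not pass, with changes from -1.38 to 0.20. The ratio of uninduced replicate 1 to replicate 2 ran from 1.38 to 2.98 among the 5 with ERSE and from 1.12 to 2.01 among the 4 with none. Neither grouping was tested.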

How the data were processed

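Per the submitters' processing notes, TopHat2 and the build GRCm38 were used; versions, quantifier, annotation release, strandedness and depth are not given in the sources used here. 1 FPKM column per sample was deposited by the authors, a unit inferred from the header, which is that of a Cufflinks tracking table, and from sums above those of TPM. FPKM is relative to each library's total, so abundant transcripts lower the others; other scalings address this. Without counts, no count model was used.

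Loci were matched by symbol; positions came from GENCODE M21 and promoters from RefSeq. log2(FPKM + 1) of 12890 loci with at least 1 FPKM in 2 samples was fitted with limma 3.58.1 in R 4.3.3 (eBayes with trend), group as the only term, adjusted over all loci. The fit was run on simulated data, but only with changes larger than those of the members, so recovery of changes this small was not checked. The members and lists were chosen with earlier results of these data known. All 10 members were named, plus the most risen and most fallen called gene of each list, Ern1, Atf6, Eif2ak3, Atf4, Ddit3 and the 3 loci nearest to Xbp1; Sdf2, Herpud2, Hyou1, Dnajb11, P4hb and those completing small counts were chosen after their values were seen. Alternatives were 3 other scalings, a pseudocount of 0.1, no filter, a filter at 5 FPKM, a replicate block and leaving out each sample.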

Additional observations from a re-analysis of the deposited data

How the results depend on the processing

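Without any filter on low values, limma called 30 of all loci (7 higher and 23 lower in induced cells) in place of 3377 (1478 higher and 1899 lower), 0 of the 10 genes, and 0 higher and 0 lower of the 102 listed genes. In that fit Herpud1 had -1.64 (adjusted p = 0.0568), Sdf2l1 -1.38 (0.0879) and Pdia6 -1.10 (0.101). With 1 sample left out, calls over all loci ran from 14 to 486 (0 to 180 higher and 14 to 306 lower), calls among the 10 genes were 0 each time, and calls among the listed genes were 0 higher and 0 to 1 lower. The log2 change then ran from -1.74 to -1.55 for Herpud1, from -1.64 to -1.11 for Sdf2l1 and from -1.33 to -0.87 for Pdia6; in a group left with 1 sample, that sample was assumed to vary like the others. Pdia6 also lost its call under quantile normalization (-0.86) and with scaling that leaves out globins and the 10 most abundant loci (-1.002), and Pdia4 gained one under median-of-ratios scaling (-0.93). Quantile normalization and the replicate block each gave 10 of the listed genes higher in place of 3. The block called 4238 loci, 3 of the 10 genes (as without it) and 21 listed genes lower in place of 15. The labels do not say that a replicate number marks a shared culture, and with 2 pairs the numbers were not taken to pair samples; the correlation across loci of the replicate 1 minus replicate 2 differences of the 2 groups was 0.17. The summed level of the 10 genes differed by -712 FPKM (induced minus uninduced mean), by -736 under median-of-ratios scaling and by -630 with scaling that leaves out globins and the 10 most abundant loci. It ran from -1311 (without uninduced replicate 2) to -113 (without uninduced replicate 1) with 1 sample left out, an alternative chosen after seeing the data. Dnajb9, Ern1 and Itpr1 gave no value with a filter at 5 FPKM. With 2 samples a group and unknown depth, the intervals limit what could be seen for Hspa5, Hsp90b1, Canx, Calr and Dnajb9.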
